A study of Mus musculus with 16 samples.

Results

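The genes described here are 3 beta subunits of the sodium pump (Na,K-ATPase), Atp1b1, Atp1b2 and Atp1b3, the pump regulator Fxyd1, and Atp1b4, a relative of the beta subunits. They are 5 of the 19938 genes with a single-symbol probe set on the array, and all 5 passed the filter on dim probe sets. Each gene is represented by its probe set with the highest mean over all arrays, and Atp1b3 is the gene among them with 2 such sets. Atp1b4 was picked for its rise in Ppp3r1 knockout muscle, so its values in that comparison, and in those that use the same arrays, are given as a description with no test.

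Total RNA came from the gastrocnemius, the large calf muscle, of 16 male C57Bl6J mice, with 1 Affymetrix Mouse Gene 1.0 array per mouse. All the mice had been on a high-fat diet, with butter fat as 40% of its calories, for at least 8 weeks, so no group stands for muscle on chow. Both lines carry mutations of calcineurin, the calcium-dependent phosphatase that activates NFAT transcription factors. One line lacks Ppp3cb, a catalytic subunit, in the whole body (global knockout, KO), and the other, named Ppp3r1Mlc1fCre, lacks the regulatory subunit Ppp3r1 in skeletal muscle (muscle-specific KO). Mlc1f is the fast myosin light chain gene Myl1, which drives the Cre recombinase in muscle fibres, so other cells of the tissue keep Ppp3r1. Each line had 4 KO mice and 4 wild-type (WT) littermates. Whether the WT littermates of the Ppp3r1 line carry the Cre is not given in the sources used here, and neither is the age of the mice.

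The sodium pump exports sodium and imports potassium at the cost of ATP, and in muscle it restores the ion gradients that each action potential runs down. A catalytic alpha subunit does the transport, and a beta subunit, a glycoprotein that crosses the membrane once, is needed to fold it and bring it to the cell surface. In rat muscle Atp1b1 is the main beta subunit of oxidative fibres and Atp1b2 that of fast glycolytic fibres. Small FXYD proteins tune the pump, and Fxyd1 (phospholemman) is the one of heart and skeletal muscle, a target of protein kinases A and C. Atp1b4 encodes BetaM, which in placental mammals no longer serves the pump: it lies in the nuclear envelope of muscle, is most abundant around birth, and binds the transcriptional coregulator Snw1.

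Arrays of a group correlated between 0.965 and 0.992 over the probe sets. The median log2 value of an array was 6.68 to 6.77 in the Ppp3cb line and 6.81 to 6.94 in the Ppp3r1 line. Skeletal muscle markers (10 genes such as Ckm and Acta1) had a mean log2 value of 13.64 to 13.88 on all arrays. Within the Ppp3r1 line it was lower on every KO array (13.64 to 13.79) than on every WT array (13.79 to 13.84), with the nearest values equal to 2 decimals. Ppp3r1 was lower on every array labelled Ppp3r1 KO (8.98 to 9.28) than on every WT array of that line (9.36 to 9.64), whereas Ppp3cb went against the label on 4 arrays of the Ppp3cb line. On those labelled KO it was low in animals 18 and 5 (10.48 and 10.22) and high in animals 6 and 9 (11.74 and 11.61). On those labelled WT it was high in animals 12 and 2 (11.80 and 11.67) and low in animals 23 and 24 (10.37 and 10.23). Groups of the Ppp3cb line are therefore named as labelled, and no direction there can be assigned to loss of Ppp3cb.

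The start regions of the members are shown because NFAT, the factor that calcineurin activates, binds DNA around the core GGAAA. RefSeq promoter windows (GRCm38.p6, 250 bases before to 50 after the start) were found for 4 of the 5 genes. Printed are that of Atp1b4, the gene that differed most in Ppp3r1 KO muscle, that of Atp1b1, which differed most between WT mice of the lines, and that of Fxyd1, the steadiest of the members. They run 5′ to 3′ on the strand of the gene, at chrX:38315872-38316171 (plus strand), chr1:164458306-164458605 (minus strand) and chr7:31054804-31055103 (minus strand). Capitals mark GGAAA on either strand, which reads TTTCC where it lies on the reverse strand.

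Atp1b4: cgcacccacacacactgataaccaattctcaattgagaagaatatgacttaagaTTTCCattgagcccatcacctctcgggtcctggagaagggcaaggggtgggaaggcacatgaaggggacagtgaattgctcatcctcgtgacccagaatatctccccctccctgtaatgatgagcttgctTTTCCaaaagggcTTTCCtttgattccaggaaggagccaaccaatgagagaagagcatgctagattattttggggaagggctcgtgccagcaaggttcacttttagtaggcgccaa

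Atp1b1: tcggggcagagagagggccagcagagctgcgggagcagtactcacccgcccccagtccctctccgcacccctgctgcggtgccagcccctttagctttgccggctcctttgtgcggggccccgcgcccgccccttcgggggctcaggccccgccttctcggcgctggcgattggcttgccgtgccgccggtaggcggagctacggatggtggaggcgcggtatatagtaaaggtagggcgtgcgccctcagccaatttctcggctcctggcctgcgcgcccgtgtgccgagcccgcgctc

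Fxyd1: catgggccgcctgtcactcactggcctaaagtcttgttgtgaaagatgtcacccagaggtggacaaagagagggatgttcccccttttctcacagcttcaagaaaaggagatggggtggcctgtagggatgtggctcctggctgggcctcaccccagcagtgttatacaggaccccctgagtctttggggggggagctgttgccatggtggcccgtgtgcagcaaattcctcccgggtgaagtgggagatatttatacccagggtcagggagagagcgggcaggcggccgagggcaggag

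The Atp1b4 window held 3 GGAAA matches, all on the reverse strand, 196, 66 and 53 bases before the start. The windows of Atp1b1 and Fxyd1 held 0. GGAAA occurred on either strand in 61.3% of 32851 promoter windows, so a match is common. Of 2 windows for Atp1b3, 1 held 2 matches, 77 and 72 bases before its start and on opposite strands, and the other held 0. The E-box CANNTG, the site of myogenic factors such as MyoD, was found at 2 positions in the Atp1b4 window, neither overlapping a GGAAA match, and at 0 positions in those of Atp1b1 and Fxyd1; it occurs in 72.3% of all windows. No window of these 4 genes held the MEF2 consensus or the SRF consensus, which occur in 3.19% and 1.63% of all windows. GC content was 49% for Atp1b4, 71% for Atp1b1 and 58.7% for Fxyd1, against a median of 52.7% over all windows. These matches describe the letters of the windows and not binding.

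Ppp3r1 KO muscle was set against WT littermate muscle to see whether pump genes differ when the calcineurin regulatory subunit is lost in fibres. The beta subunits and Fxyd1 did not pass the test, with differences of at most 0.36 on the log2 scale, while Atp1b4 stood 1.33 higher. Of the 4 members that could be tested, 0 were called by limma at an adjusted p under 0.05, and 0 had an unadjusted p under 0.05. Over all 15252 tested clusters (single-symbol probe sets above the filter) 0.00656% were called, the 1 being Myh2, and 11.7% had an unadjusted p under 0.05. The median log2 difference of all clusters was 0.02.

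**Figure D1:**
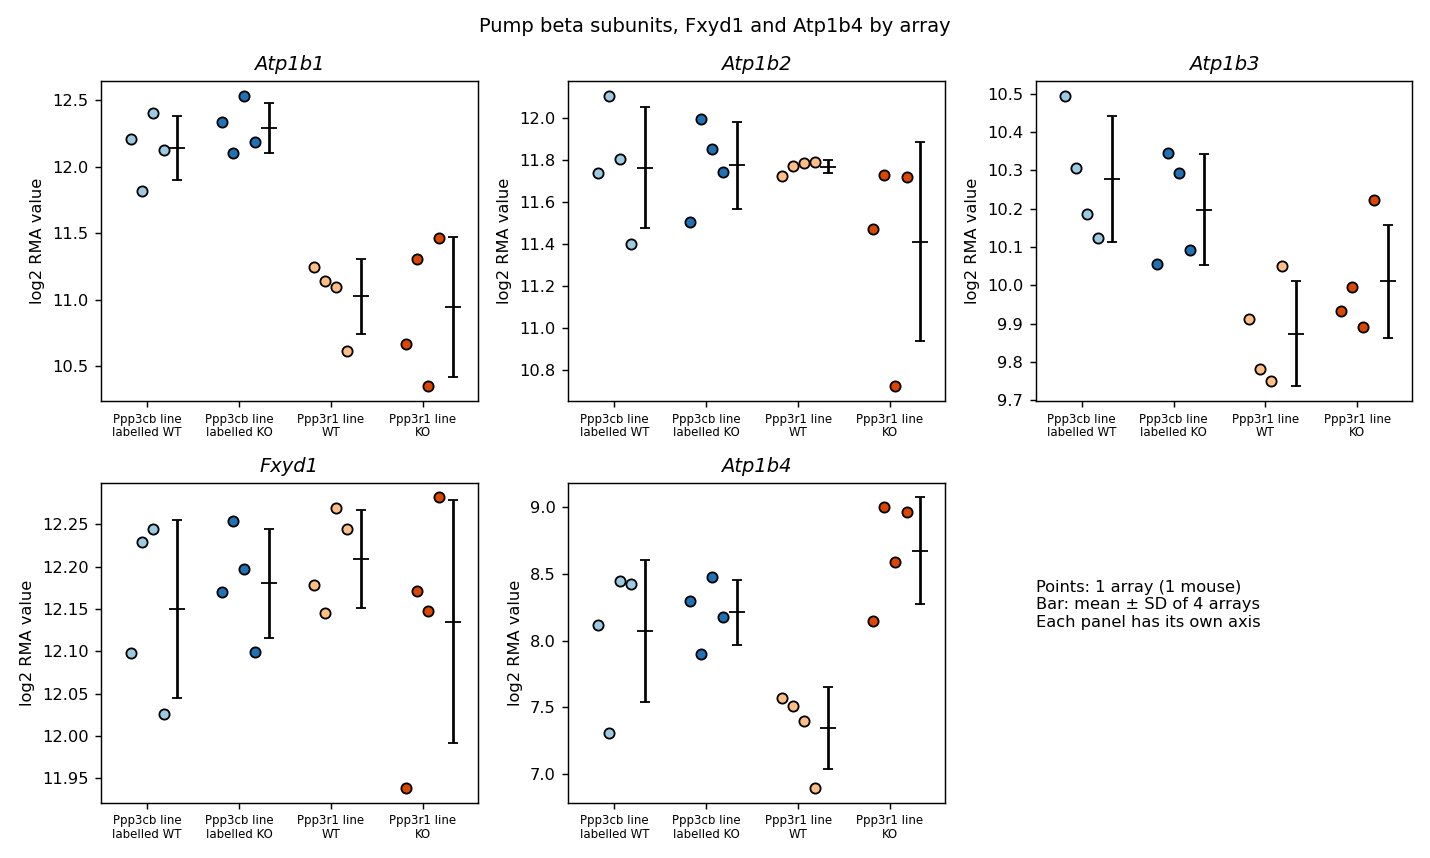
Log2 RMA values of Atp1b1, Atp1b2, Atp1b3, Fxyd1 and Atp1b4 in the 4 groups, with 1 point per array and a bar for the mean ± SD of 4 arrays; each panel has its own axis. Atp1b4 lies between 8.14 and 9.00 in Ppp3r1 KO and between 6.90 and 7.57 in WT of that line, and Atp1b1 lies lower on all arrays of the Ppp3r1 line than on those of the Ppp3cb line.

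Atp1b1 (probe set 10359689) is the most widely expressed beta subunit. Its log2 values in Ppp3r1 KO muscle were 10.67, 11.31, 10.35 and 11.46 for animals 331, 335, 414 and 416. Those of WT littermates were 11.25, 11.14, 11.09 and 10.61 for animals 334, 336, 413 and 415. The KO values spread over both sides of the WT values, so the groups overlapped. The means were 10.95 ± 0.53 (SD, n = 4) and 11.02 ± 0.28 (SD, n = 4), which differ by -0.08 (SE 0.20, 95% confidence interval -0.51 to 0.35, limma adjusted p = 0.894). The sign turned without KO animal 414 (0.12), without KO animal 331 (0.0151) and with array weights (0.0935).

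Atp1b2 (probe set 10387505), first described as an adhesion molecule of glia, was 11.47, 11.73, 10.72 and 11.72 in KO animals 331, 335, 414 and 416. The WT values were 11.72, 11.77, 11.79 and 11.79 for animals 334, 336, 413 and 415. All WT arrays lay within a narrow band, 2 KO arrays lay beside it, and animal 414 was the lowest of all 16 arrays. The log2 difference was -0.36 (SE 0.18, 95% confidence interval -0.74 to 0.02, limma adjusted p = 0.445), from means of 11.41 ± 0.48 (SD, n = 4) and 11.77 ± 0.03 (SD, n = 4). Animal 414 carried most of it, since without that array the difference was -0.13 (limma adjusted p = 0.792). Animal 414 also had the lowest mean of the fibroblast and tendon markers (7.88, against 7.99 to 8.47 in the other KO mice and 8.34 to 8.80 in WT) and the lowest mean of the skeletal muscle markers (13.64, against 13.72 or more on the other arrays). The part of fibres and of these cells in the result was not tested. In whole muscle, fewer cells of a type and less RNA per cell cannot be told apart.

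Atp1b3 (probe set 10595793), the beta subunit also known as CD298, was 9.93, 10.00, 9.89 and 10.22 in KO animals 331, 335, 414 and 416. In WT animals 334, 336, 413 and 415 it was 9.91, 9.78, 9.75 and 10.05. The groups overlapped through WT animals 334 and 415. The log2 difference was 0.14 (SE 0.11, 95% confidence interval -0.09 to 0.37, limma adjusted p = 0.603), and ranged from 0.07 without KO animal 416 to 0.20 without WT animal 415. A second, dimmer probe set of the gene (10598994) gave 0.09 (SE 0.15).

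Fxyd1 (probe set 10562211), whose unphosphorylated form lowers the pump's affinity for sodium, had the narrowest range of the members over all 16 arrays (11.94 to 12.28). It was 11.94, 12.17, 12.15 and 12.28 in KO animals 331, 335, 414 and 416, and 12.18, 12.14, 12.27 and 12.24 in WT animals 334, 336, 413 and 415. The KO values spread wider than those of WT, with animal 331 below and animal 416 above all 4 WT arrays. The log2 difference was -0.07 (SE 0.08, 95% confidence interval -0.23 to 0.09, limma adjusted p = 0.692), and -0.01 without animal 331.

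Atp1b4 (probe set 10599324) was 8.14, 9.00, 8.59 and 8.96 in KO animals 331, 335, 414 and 416. In WT animals 334, 336, 413 and 415 it was 7.57, 7.51, 7.40 and 6.90. Every KO array lay above every WT array, with 8.14 and 7.57 as the nearest values. The same held, in the higher direction, for 3.15% of all tested clusters, and nothing is read from this for a gene chosen on its rise. The means were 8.67 ± 0.40 (SD, n = 4) and 7.34 ± 0.31 (SD, n = 4), a log2 difference of 1.33 or 2.52-fold. It ranged from 1.18 without WT animal 415 to 1.51 without KO animal 331. Animals of this line are numbered in the 300s and 400s. The difference was 1.03 within the 300s and 1.63 within the 400s, with 2 KO and 2 WT mice in each. These values and the range above come from the arrays on which Atp1b4 was chosen. They describe the spread and do not replicate the rise.

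**Figure D2:**
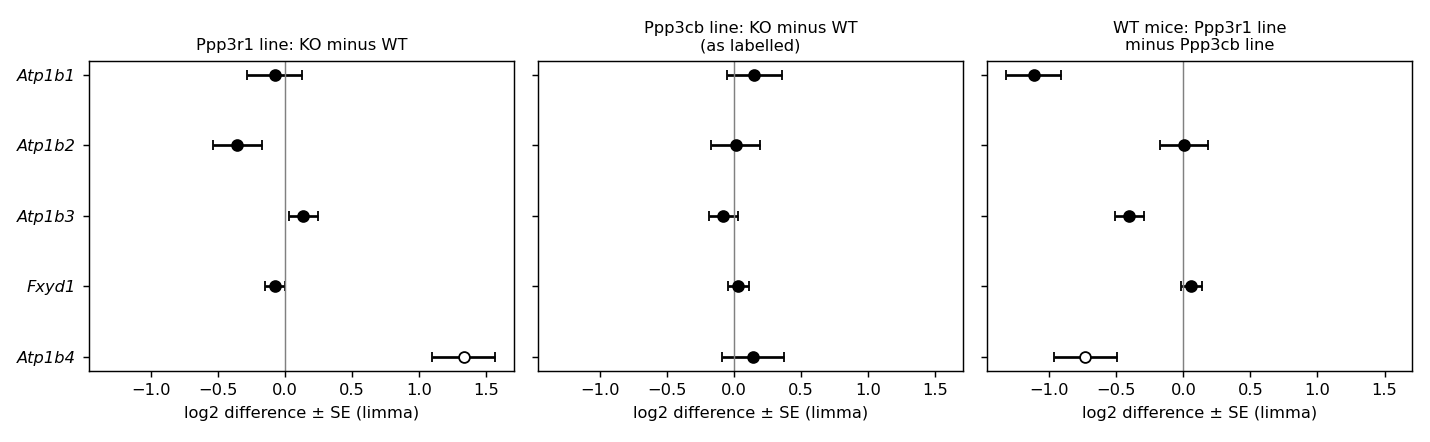
Log2 differences with their SE from limma (horizontal axis) for the 5 genes in 3 comparisons: Ppp3r1 KO minus WT, Ppp3cb KO minus WT as labelled, and WT mice of the Ppp3r1 line minus those of the Ppp3cb line. Open circles mark Atp1b4 where it has no test; it stands at 1.33 in the first panel, and Atp1b1 stands at -1.12 in the third.

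In the order of group means Atp1b4 was lowest in WT of the Ppp3r1 line (7.34), then 8.07 ± 0.53 (SD, n = 4) in Ppp3cb WT as labelled, 8.21 ± 0.24 (SD, n = 4) in Ppp3cb KO as labelled, and highest in Ppp3r1 KO (8.67). Each group overlapped its neighbour in that order. The lowest group reached the next one through animal 12 of the Ppp3cb line alone (7.31). The arrays labelled Ppp3cb KO, at 7.90 to 8.48, overlapped those of Ppp3r1 KO through animal 331. WT of the Ppp3r1 line overlapped neither Ppp3r1 KO nor Ppp3cb KO as labelled. Atp1b4 was chosen on its rise from these WT arrays to Ppp3r1 KO, so nothing is read from this order or gap.

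Across the arrays Atp1b4 ran closest with Myh1, the myosin heavy chain of type IIx fibres. With the mean of each line subtracted, Pearson's r over the 16 arrays was 0.95 (Spearman's rho 0.94), and Myh1 was the 1 cluster of 15251 with an r over 0.9. Likeness was ranked over all clusters, and its extremes were named with predicted genes passed over. These coefficients are therefore descriptions and have no p. The arrays of a line share their normalization and, in the Ppp3r1 line, the gap between KO and WT. With the mean of each group subtracted r was 0.93, so the likeness was also present among littermates of the same label. Within the Ppp3cb line r was 0.91 over 8 arrays (rho 0.76), or 0.77 without the 2 arrays farthest from the median of Myh1. Within the Ppp3r1 line it was 0.99 over 8 arrays (rho 0.98).

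**Figure D3:**
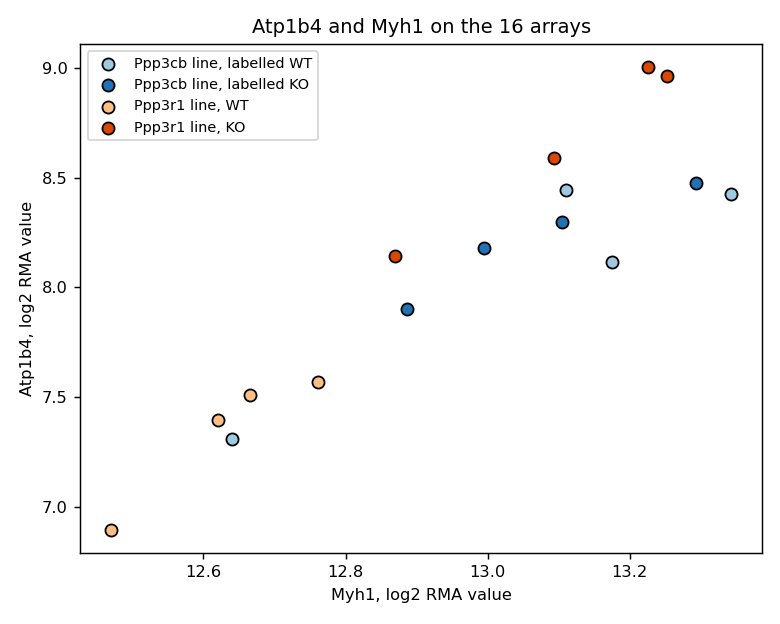
Atp1b4 (vertical axis) against Myh1 (horizontal axis), both log2 RMA values, with 1 point per array and colours for the 4 groups. The 16 arrays rise together, with r = 0.92 before any centring; WT animal 415 of the Ppp3r1 line is the lowest in both genes, and the 3 highest Atp1b4 values belong to Ppp3r1 KO.

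Myh1 was 12.87, 13.23, 13.09 and 13.25 in Ppp3r1 KO animals 331, 335, 414 and 416, and 12.76, 12.67, 12.62 and 12.47 in WT animals 334, 336, 413 and 415. Within WT the 4 animals stood in the same order for Myh1 and Atp1b4. Within KO animals 331 and 414 were the lower ones for both genes and 335 and 416 the higher ones. For Myh1 the log2 difference was 0.48 (SE 0.13, limma adjusted p = 0.363). Every KO array lay above every WT array, as for 3.15% of all clusters. In the Ppp3cb line, where Myh1 did not differ by label (0.003, SE 0.13), animal 12 was lowest and animal 6 second lowest in both genes.

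Other clusters with a high r to Atp1b4 were the histone gene H2ab1 (0.87, from 2 probe sets that hold identical values), Raver2 (0.85) and the glycogen branching enzyme gene Gbe1 (0.85). The lowest, with predicted genes passed over, were Mtx3 (-0.86), Hoxd10 (-0.81), Ppp3r1 itself (-0.79), Srpr (-0.79) and Rxylt1 (-0.78). Values with line means subtracted keep the gap between KO and WT on which Atp1b4 was picked. Ppp3r1 was lower on every KO array of its line, so its negative r is partly built in. With group means subtracted r was 0.86 for H2ab1, 0.75 for Raver2 and 0.59 for Gbe1. It was -0.59 for Mtx3, -0.68 for Hoxd10, -0.68 for Ppp3r1, -0.69 for Srpr and -0.64 for Rxylt1. The pump genes were not among the extremes: with line means subtracted r was 0.37 for Atp1b1, -0.45 for Atp1b2, 0.17 for Atp1b3 and -0.18 for Fxyd1. For Atp1b1 it was 0.77 with group means subtracted, and in Ppp3r1 KO muscle animals 331 and 414 were again its lower arrays. Myh2, the type IIa chain, also changed with the centring, from -0.54 with line means to 0.75 with group means subtracted.

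Myh2 fell by 2.08 on the log2 scale in Ppp3r1 KO muscle (SE 0.25, limma adjusted p = 0.00186), and this call was lost when the line was fitted alone. The list of 15 fibre type genes otherwise held 0 calls. Its median log2 difference was 0.02, equal at this precision to that of all clusters. Tnnc2, the fast troponin C, had -0.23 (SE 0.07), Myh4, the type IIb chain, had -0.06 (SE 0.05), and Myh7, the slow chain, had 0.51 (SE 0.55).

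The other pump subunits and FXYD proteins were listed as 10 genes, with 7 of them on a single-symbol probe set and 6 past the filter. Of the 6 tested, 0 were called in Ppp3r1 KO muscle, and 3 had an unadjusted p under 0.05, beside 11.7% of all clusters. The list is short, and nothing is read from this count. Fxyd6 differed by -0.46 (SE 0.18, limma adjusted p = 0.366), with KO arrays at 8.93 to 9.22 and WT arrays at 9.25 to 9.81. Fxyd2, the gamma subunit of the kidney pump, had 0.31 (SE 0.12, limma adjusted p = 0.366), with KO arrays at 6.59 to 6.69 and WT arrays at 5.89 to 6.51. For these genes the groups did not overlap, as for 1.71% of all clusters in the lower direction and 3.15% in the higher. Fxyd2 was dim, with group means of 6.32 to 6.64, close to the filter at 6.18. Its lowest WT array lay below that filter. Fxyd5, known as dysadherin, had 0.34 (SE 0.15) and overlapped. Fxyd3, Fxyd4 and Fxyd7 lay between -0.07 and 0.02. Atp1a4, the alpha subunit of sperm, stayed below the filter, with group means of 6.06 to 6.12.

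The further lists around these genes held 0 calls in Ppp3r1 KO muscle, where 54.2% of all clusters were higher. Of 9 tested genes of sodium entry and exchange 4 were higher and 5 lower, with Scn4b, a sodium channel beta subunit, at -0.45 (SE 0.16, limma adjusted p = 0.363) and the sodium-calcium exchanger genes Slc8a1 and Slc8a2 at 0.20 (SE 0.11) and 0.14 (SE 0.10). Of 16 pump regulators and anchors 5 were higher and 11 lower (median -0.12), with the anchor ankyrin gene Ank1 at -0.24 (SE 0.11), the kinase gene Wnk1 at -0.19 (SE 0.09) and the mineralocorticoid receptor gene Nr3c2 at -0.23 (SE 0.13). The list of nuclear envelope proteins, the compartment of BetaM, also held Snw1 and the signalling inhibitor gene Smad7. Of its 24 genes 14 were higher and 10 lower (median 0.02), with the nesprin gene Syne1 at 0.53 (SE 0.16), Plpp7 at -0.42 (SE 0.15) and the lamin gene Lmnb2 at 0.20 (SE 0.07). Of the 4 tested NKAIN and gastric proton pump genes 3 were higher, with Nkain4, Nkain2 and Atp4a at 0.18 (SE 0.09), 0.23 (SE 0.11) and 0.15 (SE 0.08).

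The next list held genes of regenerating muscle and of perinatal muscle, the latter being the stage at which BetaM is most abundant. They were higher in 12 of 15 cases (median log2 difference 0.15, against 0.02 over all clusters), and 0 of them were called. Of all clusters 54.2% were higher in this comparison, and the counts of direction below are read beside that share. Myf6, a myogenic factor, had 0.40 (SE 0.14), Runx1 0.44 (SE 0.18) and the perinatal myosin gene Myh8 0.27 (SE 0.11), each with an unadjusted p under 0.05 and overlapping groups. Of all clusters 11.7% had an unadjusted p under 0.05. The limma adjusted p was between 0.366 and 0.372 for the 3 genes. The lists of skeletal muscle markers and of markers of other cell types held 0 calls as well. Skeletal muscle markers were lower in 8 of 10 cases (median -0.04), and Schwann cell markers, with 3 of 8 below the filter, were higher in 5 of 5 tested cases (median 0.14). The Schwann cell mean lay at 7.17 to 7.29 on KO arrays and 6.98 to 7.17 on WT arrays, every KO array above every WT array, with the nearest values equal to 2 decimals. In the Ppp3cb line as labelled these markers were also higher in 5 of 5 tested cases (median 0.20), beside 55.9% of all clusters. Their mean overlapped there, at 7.15 to 7.28 on arrays labelled KO and 7.11 to 7.22 on those labelled WT. Fibroblast and tendon markers were lower in 10 of 11 cases (median -0.33), and their mean lay at 7.88 to 8.47 on KO arrays and 8.34 to 8.80 on WT arrays. Satellite cell markers, which include Pax7, lay at 7.77 to 7.85 on KO arrays and 7.72 to 7.86 on WT arrays. The part of these cells in the values of the pump genes was not tested.

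In the Ppp3cb line the arrays labelled KO were compared with those labelled WT, and no member passed the test. Of the 5 members 0 were called by limma, 0 had an unadjusted p under 0.05, and in 0 the groups failed to overlap. Of all clusters 0% were called, 1.73% had an unadjusted p under 0.05, and the groups did not overlap in 0.774% (higher) and 0.734% (lower). Atp1b4 was 8.18, 8.30, 7.90 and 8.48 in animals 18, 5, 6 and 9 labelled KO. In animals 12, 2, 23 and 24, labelled WT, the values were 7.31, 8.12, 8.44 and 8.43. Animal 12 was the lowest array, and the other 7 were mixed by label. The log2 difference was 0.14 (SE 0.23, 95% confidence interval -0.35 to 0.63, limma adjusted p = 0.9998). It became -0.12 without animal 12 and 0.52 without the 4 arrays that contradict their label.

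Atp1b1 was 12.18, 12.34, 12.11 and 12.54 in animals 18, 5, 6 and 9 labelled KO, and 11.82, 12.21, 12.40 and 12.13 in animals 12, 2, 23 and 24 labelled WT. The labels were mixed along its range. Its log2 difference was 0.15 (SE 0.20, 95% confidence interval -0.28 to 0.58), or 0.04 without animal 12, 0.24 without animal 23 and 0.24 with the 4 contradicting arrays left out. For Atp1b2 the difference was 0.01 (SE 0.18), for Atp1b3 -0.08 (SE 0.11) and for Fxyd1 0.03 (SE 0.08). Without the contradicting arrays the last 3 differences were -0.30, -0.33 and -0.0286, and none was called, with the lowest limma adjusted p at 0.815 for Atp1b3. Of the 6 other FXYD genes tested 0 were called, with Fxyd3 at 0.22 (SE 0.11) and Fxyd6 at 0.27 (SE 0.18).

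The same 8 arrays were then set out by their Ppp3cb value, which fell into a low range up to 10.48 and a high range from 11.61, on either side of 11. These are ranges of a measured value and not the study's groups, so values are given with no mean and no test. Atp1b3 was 10.09, 10.06, 10.19 and 10.12 in animals 18, 5, 23 and 24, the arrays with low Ppp3cb. It was 10.35, 10.29, 10.31 and 10.50 in animals 6, 9, 12 and 2, the arrays with high Ppp3cb. The ranges did not overlap, with Atp1b3 lower where Ppp3cb was lower, as was the case for 5.58% of all clusters. Its second probe set gave 8.54 to 8.86 and 8.86 to 9.32, also without overlap but with the nearest values equal to 2 decimals.

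The other members overlapped between the ranges. Atp1b2 lay at 11.40 to 11.81 with low Ppp3cb and at 11.74 to 12.11 with high Ppp3cb. Atp1b1 lay at 12.13 to 12.40 and 11.82 to 12.54, and Fxyd1 at 12.03 to 12.24 and 12.10 to 12.25. Atp1b4 lay at 8.18 to 8.44 with low Ppp3cb and spread from 7.31 to 8.48 with high Ppp3cb. The arrays with low Ppp3cb had a narrow Atp1b4 range within that of the other arrays. Ppp3r1 itself did not overlap between the ranges, at 9.43 to 9.64 and 9.68 to 10.08.

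**Figure D4:**
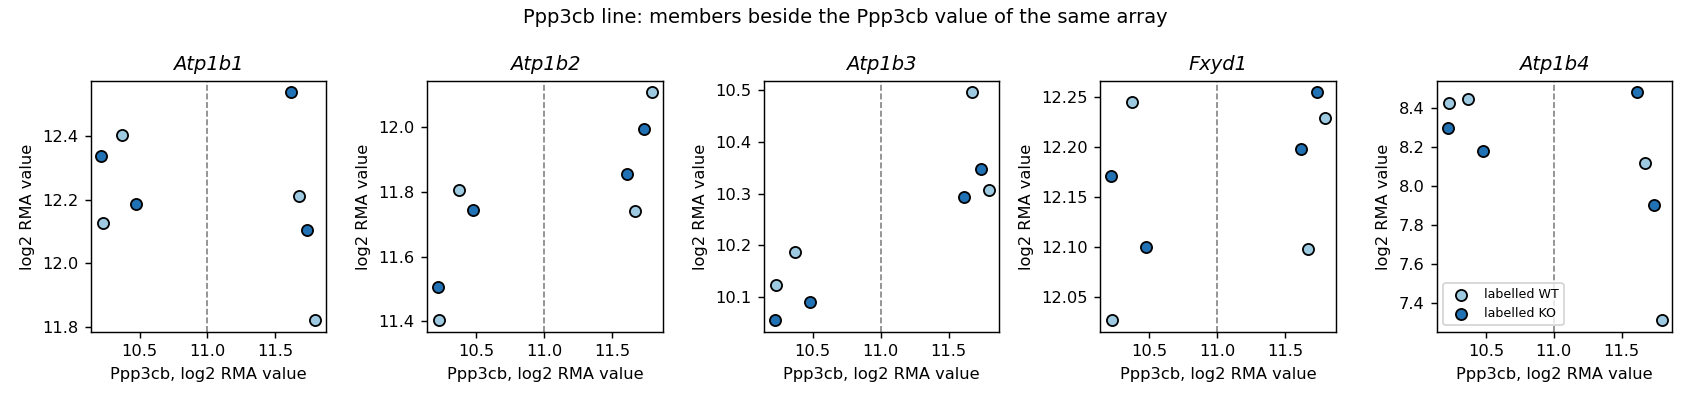
Log2 RMA values of the 5 genes (vertical axes, 1 panel per gene) against the Ppp3cb value of the same array (horizontal axis) on the 8 arrays of the Ppp3cb line, with the dashed line at 11 and colours for the labels. Atp1b3 lies at 10.06 to 10.19 left of the line and at 10.29 to 10.50 right of it, and the other 4 genes overlap.

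WT mice of the Ppp3r1 line were set against WT mice of the Ppp3cb line to show how much the members vary without a labelled KO. Of the latter, animals 23 and 24 had low Ppp3cb against their label (10.37 and 10.23). Their Atp1b3 values were 10.19 and 10.12, against 10.31 and 10.50 in animals 12 and 2. Atp1b1 and Atp1b3 were lower in the Ppp3r1 line, while Atp1b2 and Fxyd1 did not pass the test. Line and any batch of array processing cannot be told apart here, and 35.0% of all clusters were called, 24.3% of all as lower. The 2 of 4 tested members that were called lower are read against that share. The median of all clusters was -0.10, and centring each array on its median moved it to -0.21. The WT mice of the Ppp3r1 line also served in the comparison with their KO littermates, so the results share those arrays.

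Atp1b1 lay at 10.61 to 11.25 in WT of the Ppp3r1 line and at 11.82 to 12.40 in WT of the Ppp3cb line, without overlap in the lower direction, as for 22.7% of all clusters. On the log2 scale it fell by 1.12 (SE 0.20, 2.17-fold, limma adjusted p = 0.00132), and its values in both Ppp3r1 groups, up to 11.46, lay below all those of the Ppp3cb line. Over the other settings the difference ranged from -1.23 with centred arrays to -0.98 without animal 415, and all were called. Atp1b3 fell by 0.40 (SE 0.11, limma adjusted p = 0.0107), from 10.12 to 10.50 in the Ppp3cb line to 9.75 to 10.05 in the Ppp3r1 line, and its second probe set by 0.41 (SE 0.15, limma adjusted p = 0.0402). The difference of Atp1b3 was -0.52 with centred arrays and -0.29 after quantile normalization over all 16 arrays, and remained called.

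Atp1b2 differed by 0.005 (SE 0.18, limma adjusted p = 0.987) and Fxyd1 by 0.06 (SE 0.08, limma adjusted p = 0.55), and with centred arrays both were slightly negative (-0.11 and -0.0537). Atp1b4, whose WT arrays took part in its choice, differed by -0.73 with overlapping groups, or by -0.99 without animal 12 and -0.37 with the contradicting arrays left out. Of the other FXYD genes Fxyd5 fell by 1.00 (SE 0.15, limma adjusted p = 0.000348) and Fxyd6 by 0.56 (SE 0.18, limma adjusted p = 0.0223), while Fxyd4 rose by 0.45 (SE 0.12, limma adjusted p = 0.0107).

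Markers of fibres and of other cells also differed between these WT groups, and not all in the same direction. Of the 15 fibre type genes 9 were called lower and 1 was called higher (median -1.03). Myh7, the slow chain, fell by 1.91 (SE 0.55, limma adjusted p = 0.0153), Myh2 by 1.03 (SE 0.25, limma adjusted p = 0.00548) and Myh1 by 0.44 (SE 0.13, limma adjusted p = 0.0145), while Myh4 differed by 0.07 (SE 0.05). Macrophage markers were called lower in 9 of 9 tested cases (median -0.86), with 1 of 10 below the filter. Their mean was 6.69 to 7.10 in the Ppp3r1 line and 7.33 to 7.93 in the Ppp3cb line. Endothelial markers were lower in 9 of 10 cases, of which 4 were called, and their mean was 8.56 to 8.87 and 8.92 to 9.06. Of all clusters 38.5% were higher and 24.3% were called lower. Satellite cell markers held 2 calls of 7, both higher. Adipocyte markers were higher in 5 of 7 cases (median 0.23) with 0 calls. Skeletal muscle markers were higher in 5 cases and lower in 5 (median 0.01), and 3 of 11 fibroblast and tendon markers were called lower. The part of fibre types and of these cells in the lower Atp1b1, Atp1b3 and Fxyd5 was not tested.

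Whether the KO effect differed between the lines was tested by their interaction, with genotypes as labelled. Of the 4 testable members 0 were called by limma and 0 had an unadjusted p under 0.05, against 0% and 5.31% of all clusters. The difference of effects, Ppp3r1 line minus Ppp3cb line, was -0.23 (SE 0.29) for Atp1b1, -0.37 (SE 0.26) for Atp1b2, 0.22 (SE 0.15) for Atp1b3 and -0.11 (SE 0.11) for Fxyd1. With each array left out in turn these ran from -0.40 (without KO animal 416) to -0.03 (without KO animal 414) for Atp1b1, from -0.48 (without animal 12 of the Ppp3cb line) to -0.14 (without KO animal 414) for Atp1b2, from 0.15 to 0.28 for Atp1b3 and from -0.15 to -0.04 (without KO animal 331) for Fxyd1. For Atp1b4, given without a test, it was 1.19, or 0.81 with the 4 contradicting arrays left out.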

How the data were processed

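Gene expression was measured in gastrocnemius RNA of 16 mice, 4 in each of 4 groups, which were taken from the labels. The authors deposited log2 values, and the submitters' processing notes name GCOS 1.0 and RMA as the tools. RMA as generally defined corrects background, quantile-normalizes and summarizes probe sets; its settings: not given in the sources used here. Joint or separate normalization of the lines is not stated either. Another deposited log2 table held 0 values that differed by more than 1e-06, and the deposited ratio columns equalled the linear value over the median of the line to within 8.13e-05%, so neither was used further. All 48 per-sample columns were matched by name.

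Symbols were taken from GEO's platform annotation, in which 21789 of 35557 probe sets have exactly 1. Tested were the 15252 clusters whose mean reached the 30th percentile (log2 6.18). A group-means model of the 16 arrays was fitted in limma 3.58.1 (R 4.3.3) with an intensity trend, and Benjamini-Hochberg adjustment ran over all tested clusters. A call is an adjusted p under 0.05. The variance is common to all groups, so each SE draws on both lines. The fit was tested on simulated data. The number of arrays limits the precision.

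The members and the gene lists were chosen with earlier results of these data known. Named are the members, the targeted genes, the measured FXYD and pump genes, and 4 adult myosin heavy chains. Also named are the 5 clusters most and least like Atp1b4, predicted genes passed over, and from other lists the genes with the smallest p. Alternatives covered the filter, normalization, centring, the variance trend, array weights, each line alone, the animal number series, another probe set, and arrays left out.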

Additional observations from a re-analysis of the deposited data

How the results depend on the processing

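Results were recomputed under other filters, normalizations, weights and sample sets, and the calls of Atp1b1 and Atp1b3 between WT groups held in all of them. No tested member was called in any setting of the KO comparisons or of the interaction. Signs turned for small, uncalled differences, and the cause was not tested. In Ppp3r1 KO minus WT, Atp1b1 was 0.0935 with array weights and ranged from -0.25 to 0.12 with each array left out. In the Ppp3cb line Atp1b2 was -0.0120 with array weights and -0.30 with the 4 arrays that contradict their label left out, Fxyd1 was -0.0286 without them, and leaving out each array gave -0.11 to 0.13 for Atp1b2, -0.12 to 0.26 for Atp1b4 and -0.0102 to 0.0626 for Fxyd1. Between WT groups Atp1b2 was -0.11 with centred arrays, -0.0327 with array weights, -0.16 without the contradicting arrays and -0.12 to 0.12 with each array left out, and Fxyd1 was -0.0537 with centred arrays.

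Counts of called clusters were 2 with array weights and 0 with the line fitted alone in the Ppp3r1 comparison (1 to 12 with each array left out, 12 without KO animal 416). They were 14 without the contradicting arrays in the Ppp3cb comparison (0 to 2 with each array left out, 2 without animal 9 labelled KO). Between WT groups 3324 were called without the contradicting arrays, and 3099 to 5784 with each array left out, the lowest without WT animal 336; of the calls 30.6% were higher, against 13.1% with centred arrays and 24.0% after quantile normalization. For the interaction the counts were 1 with centred arrays, 7 without the contradicting arrays and 0 to 1 with each array left out. No paired analysis was possible because the groups share no animal numbers. Arrays give no read depth, and the filter on dim probe sets removed none of the members.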
